A study of Homo sapiens with 12 samples.

Results

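The genes described here encode the parts of the centromere and the kinetochore and the kinases and adaptors of the spindle checkpoint. They were taken by gene symbol and known function, 43 of the 19973 genes in the deposited expression table, and all 43 were present. By role, 4 deposit or form the centromeric histone CENP-A, 13 belong to the constitutive centromere network, 9 to the outer kinetochore, 3 to the SKA complex, 4 to the fibrous corona and its RZZ complex, 6 to the checkpoint itself and 2 are shugoshins, beside CENPB and CENPJ. RNA sequencing measured them in 12 libraries of prostate cancer cells, 3 in each of 4 groups. The sample titles number the replicates, and each library is taken here as 1 dish. C4-2 ARv7 is the C4-2 line, a castration-resistant derivative of LNCaP, infected with a lentivirus that expresses ARv7, and C4-2 control carried the vector control. 22Rv-1 shARv7 is the 22Rv-1 line, derived from the CWR22R xenograft, with a short hairpin that depletes ARv7, and 22Rv-1 shcontrol carried the control hairpin. All 4 groups were infected with lentivirus and grown in medium with fetal bovine serum, and the stable lines were made by puromycin selection. How many clones or pools each line held, and which promoter drove the transgene, has no source here, so any other difference between selected lines cannot be told apart from ARv7. Because the replicates of a group are of the same line, p-values measure the spread between its libraries.

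The kinetochore is the protein structure that ties a chromosome to spindle microtubules in mitosis. Nucleosomes with CENP-A mark the centromere, the constitutive network of CENP proteins is built on them, and in mitosis that network recruits the KNL1, MIS12 and NDC80 complexes, the last of which grips the microtubule. Kinetochores without a microtubule produce the mitotic checkpoint complex, which holds back anaphase. Many of these genes are transcribed mainly in G2 and mitosis through promoters with CHR and CCAAT elements, so in bulk RNA their level also follows the share of cells in those phases, and fewer such cells and less RNA per cell cannot be told apart here.

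Total counts ran from 12318529 to 14672948 per library. FPKM, the deposited level per length and total count, allows genes to be compared. The proliferation marker MKI67 stood at 6.16, 6.13 and 6.21 FPKM in C4-2 ARv7 and 0.459, 0.483 and 0.345 FPKM in C4-2 control, and at 11.9, 12.7 and 12.1 FPKM in 22Rv-1 shARv7 and 16.9, 17.8 and 18.4 FPKM in 22Rv-1 shcontrol. MKI67 rose in C4-2 ARv7 (log2 fold change 3.70, edgeR adjusted p = 2.04e-16) and fell in 22Rv-1 shARv7 (log2 fold change -0.58, edgeR adjusted p = 2.24e-16), as did most of the genes described below, and its part in their changes was not tested. All 8 prostate epithelial markers averaged at least 1 FPKM in every group. The summed level of 6 fibroblast, 5 endothelial and 6 immune markers stayed at or under 11.7, 1.13 and 6.63 FPKM in every library. The fibroblast sum differed between groups, from 0.888 to 1.14 FPKM in C4-2 control to 10.7 to 11.7 FPKM in 22Rv-1 shcontrol. COL1A1 averaged at least 1 FPKM in C4-2 ARv7, 22Rv-1 shARv7 and 22Rv-1 shcontrol. So did COL3A1 and LYZ in 22Rv-1 shARv7, and LUM in 22Rv-1 shcontrol. C4-2 control replicate 3 stood apart most from the replicates of its own group, with chi-squares over degrees of freedom of 12.3 and 6.85 where the other pairs lay between 2.10 and 4.64, and counts of changed genes without it are given below.

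In C4-2, 36 of the 42 genes tested rose with ARv7, 3 fell and 3 did not pass the test. Of all 12783 genes tested in this comparison, 29.6% rose and 29.5% fell by the same rule, edgeR's quasi-likelihood test with an adjusted p under 0.05. The median log2 fold change of the 42 was 2.26, a 4.77-fold higher level in C4-2 ARv7, where that of all genes tested was 0.005. Of the 42, 33 were at least 2-fold higher, against 8.52% of all genes tested, and 22 were at least 4-fold higher, against 2.81%. The counts of 36 and 3 were the same without C4-2 control replicate 3. With total counts and no scaling factor the median of all genes tested moved to 0.152 and the split of all calls to 5159 higher and 2523 lower, against 3781 higher and 3776 lower with TMM normalization, and then 37 of these genes rose and 3 fell. All changes are relative to that scaling.

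In 22Rv-1, 33 of the 43 genes fell when ARv7 was depleted, 1 rose and 9 did not pass. Of all 13459 genes tested there, 24.1% fell and 23.9% rose. The median log2 fold change of the 43 was -0.38, a level 1.31-fold lower in 22Rv-1 shARv7, and none was lower by 2-fold or more, as were 2.04% of all genes tested. The summed level of the 43 genes was 424 to 445 FPKM in 22Rv-1 shARv7 libraries and 536 to 556 FPKM in 22Rv-1 shcontrol libraries. In C4-2 it was 318 to 331 FPKM with ARv7 and 127 to 135 FPKM in control libraries. In neither line did these ranges overlap.

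**Figure D1:**
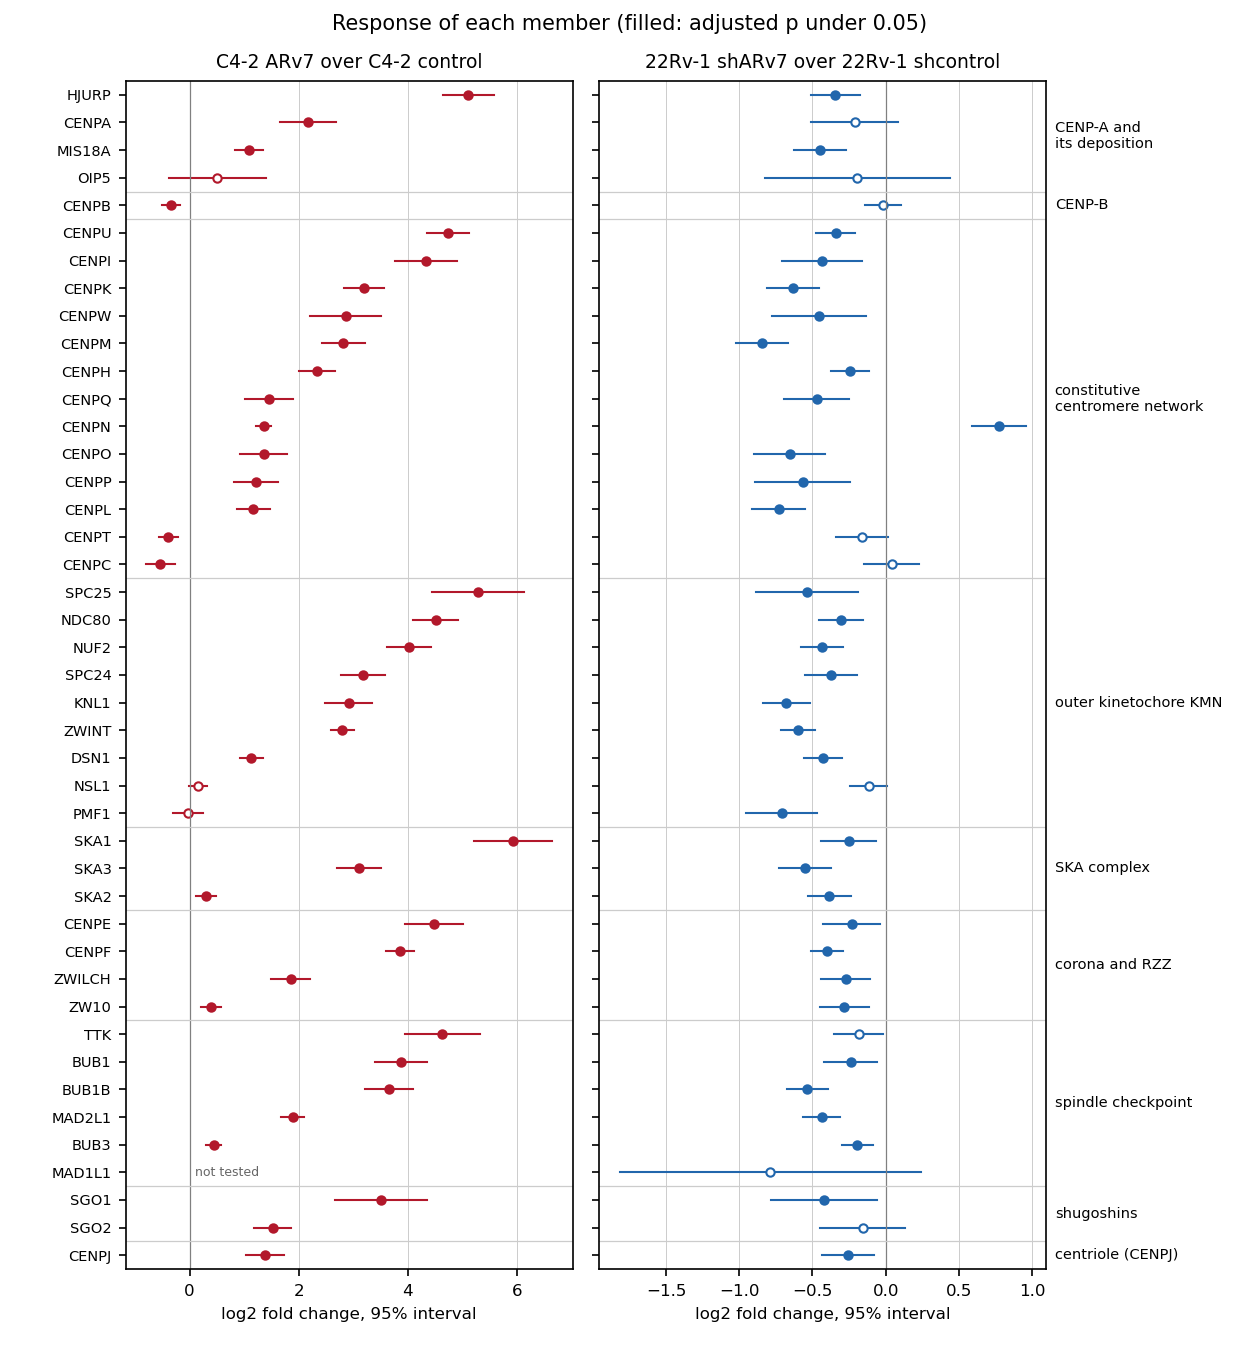
Log2 fold change of each gene with its 95% interval, C4-2 ARv7 over C4-2 control on the left and 22Rv-1 shARv7 over 22Rv-1 shcontrol on the right, grouped by role. The axes differ in scale: in C4-2 the values run from -0.54 to 5.94, and in 22Rv-1 from -0.84 to 0.77. Filled points passed an adjusted p of 0.05 and open points did not.

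Of the 42 genes tested in both lines, 32, or 76.2%, rose in C4-2 ARv7 and fell in 22Rv-1 shARv7, where 9.43% of the 12080 genes tested in both lines did so. CENPN was the 1 gene higher in both. CENPA, TTK and SGO2 rose in C4-2 and did not pass in 22Rv-1. CENPB, CENPC and CENPT fell in C4-2 and did not pass in 22Rv-1, PMF1 fell in 22Rv-1 and did not pass in C4-2, and OIP5 and NSL1 passed in neither line. Across the 42 genes the log2 fold changes of the lines had Pearson r = -0.202 and Spearman rho = -0.182, as a description, since genes are not independent replicates.

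**Figure D2:**
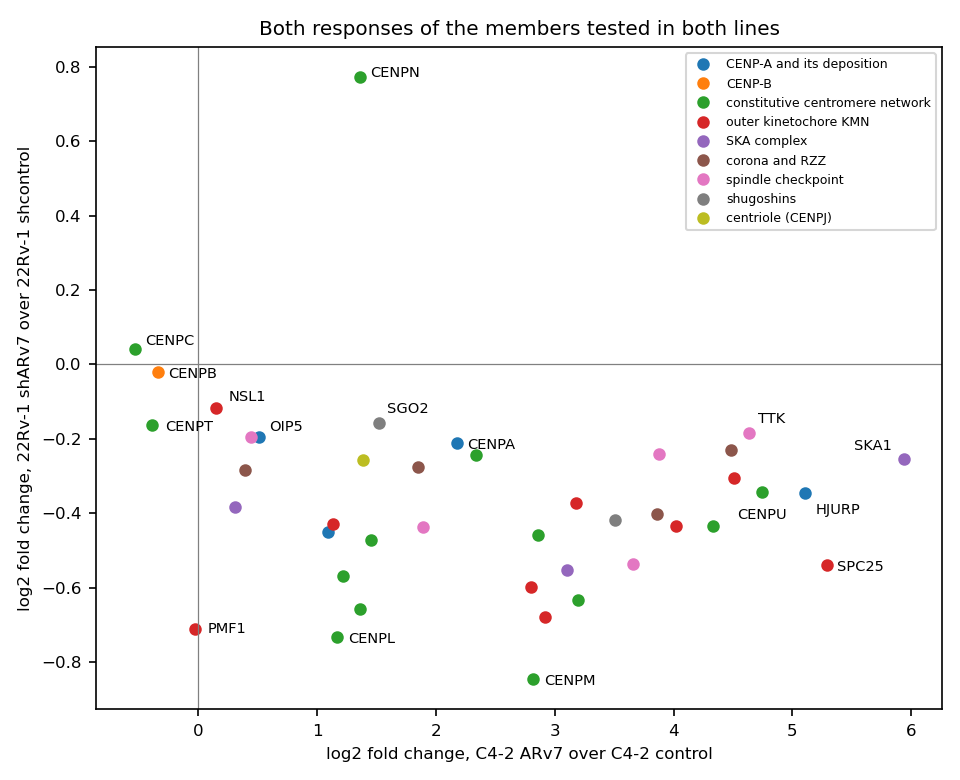
Log2 fold change of each gene tested in both lines, C4-2 ARv7 over C4-2 control on the horizontal axis and 22Rv-1 shARv7 over 22Rv-1 shcontrol on the vertical axis, 1 point per gene, coloured by role. Most points lie at the lower right, higher in C4-2 ARv7 and lower in 22Rv-1 shARv7, and CENPN stands alone at the upper right at 1.36 and 0.77.

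The promoters of the genes were searched on both strands for short elements, in the windows from 250 bases before to 50 bases after the gene start. RefSeq sequence on GRCh38.p14 was at hand for 35 of the genes, in 39 windows since CENPP, ZWINT and SGO2 have more than 1, and MIS18A, CENPH, CENPL, CENPM, KNL1, TTK, BUB3 and CENPJ were not matched. The cell cycle genes homology region (CHR) was searched as TTTGAA and in its other common form as TTCGAA. It was found in 20 of the 39 windows, 51.3%, and in 16.4% of all 35116 windows. Of the 19 windows of genes at least 4-fold higher in C4-2 ARv7, 14 held a CHR match, and 6 of the other 20 did. Windows are not genes: ZWINT counts more than once among the 14, with CHR matches at -31 and -17 in its windows. CENPP and SGO2 count more than once among the other 20, with no CHR match. The split was drawn by the result in C4-2 and the motifs were chosen with earlier results known, so it is a description. The same split for CCAAT was 12 of 19 and 12 of 20, and for E2F elements 3 of 19 and 3 of 20. CCAAT was found in 61.5% of the members' windows and 34.6% of all windows, and both CHR and CCAAT in 35.9% and 6.38%. E2F elements, searched first as TTTGGCG, then in the variant form TTTCGCG, and last in the variant form TTTCCCG, were in 15.4% and 7.21%. A match is a description of these letters, not a bound site. The 5 windows below are those of SKA1, among the largest rises in C4-2; NDC80 and CENPF, which rose with it; CENPC, which fell; and CENPN, which was higher in both lines. Each is 300 bases in the 5′ to 3′ direction of the gene, with CHR and CCAAT matches in capitals on either strand.

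SKA1 (chr18:50374796-50375095, plus strand): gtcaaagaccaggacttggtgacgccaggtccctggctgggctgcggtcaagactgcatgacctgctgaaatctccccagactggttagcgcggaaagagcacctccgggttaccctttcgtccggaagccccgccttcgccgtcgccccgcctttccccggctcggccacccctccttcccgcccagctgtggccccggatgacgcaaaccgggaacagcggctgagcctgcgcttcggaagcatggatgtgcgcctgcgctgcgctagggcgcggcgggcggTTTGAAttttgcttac
NDC80 (chr18:2571307-2571606, plus strand): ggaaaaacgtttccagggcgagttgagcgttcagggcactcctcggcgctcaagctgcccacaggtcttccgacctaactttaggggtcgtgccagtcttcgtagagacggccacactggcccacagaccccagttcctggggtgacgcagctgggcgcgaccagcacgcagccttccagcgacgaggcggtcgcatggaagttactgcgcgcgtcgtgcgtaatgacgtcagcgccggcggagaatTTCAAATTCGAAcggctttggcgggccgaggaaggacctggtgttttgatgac
CENPF (chr1:214602945-214603244, plus strand): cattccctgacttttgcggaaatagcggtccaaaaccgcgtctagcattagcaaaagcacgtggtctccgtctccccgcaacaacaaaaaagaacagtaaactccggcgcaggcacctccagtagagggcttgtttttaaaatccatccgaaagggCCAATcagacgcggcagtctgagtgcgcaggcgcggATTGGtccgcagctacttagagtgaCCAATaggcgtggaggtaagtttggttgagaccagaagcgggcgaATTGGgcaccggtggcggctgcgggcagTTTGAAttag
CENPC (chr4:67545454-67545753, minus strand): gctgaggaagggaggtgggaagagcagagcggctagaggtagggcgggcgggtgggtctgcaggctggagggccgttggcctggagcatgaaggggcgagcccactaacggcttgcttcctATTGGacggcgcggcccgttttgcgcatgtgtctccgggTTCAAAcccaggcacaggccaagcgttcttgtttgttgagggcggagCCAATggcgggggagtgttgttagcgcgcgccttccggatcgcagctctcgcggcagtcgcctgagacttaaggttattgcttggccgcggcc
CENPN (chr16:81006964-81007263, plus strand): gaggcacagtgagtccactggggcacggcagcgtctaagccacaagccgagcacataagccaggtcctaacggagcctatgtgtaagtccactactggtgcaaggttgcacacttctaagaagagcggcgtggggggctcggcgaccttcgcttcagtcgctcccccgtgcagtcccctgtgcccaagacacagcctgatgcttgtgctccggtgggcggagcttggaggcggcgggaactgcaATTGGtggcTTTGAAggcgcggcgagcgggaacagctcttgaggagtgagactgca

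SKA1 had its CHR match at position 35 counted from the gene start, and NDC80 had adjoining CHR matches at -3 and 4. CENPF had CCAAT matches at -94, -58, -33 and 13 and a CHR match at 41. CENPC, which fell in C4-2, held a CHR match at -90 between CCAAT matches at -129 and -43, and CENPN a CCAAT match at -6 and a CHR match at 4. Positions are counted from the start that each window was built on. For CENPN this is not the start in the deposited table, 81006498. Its window begins at 81006964, downstream of that start. The windows of CENPB and CENPT, the other genes that fell, held neither. Nor did those of CENPE and CENPI, which were more than 4-fold higher in C4-2 ARv7, or of DSN1, which also rose. Neither element was thus common to all genes that rose. The windows of NSL1, which did not pass in C4-2, and of MAD1L1, which was not tested there, held neither as well.

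**Figure D3:**
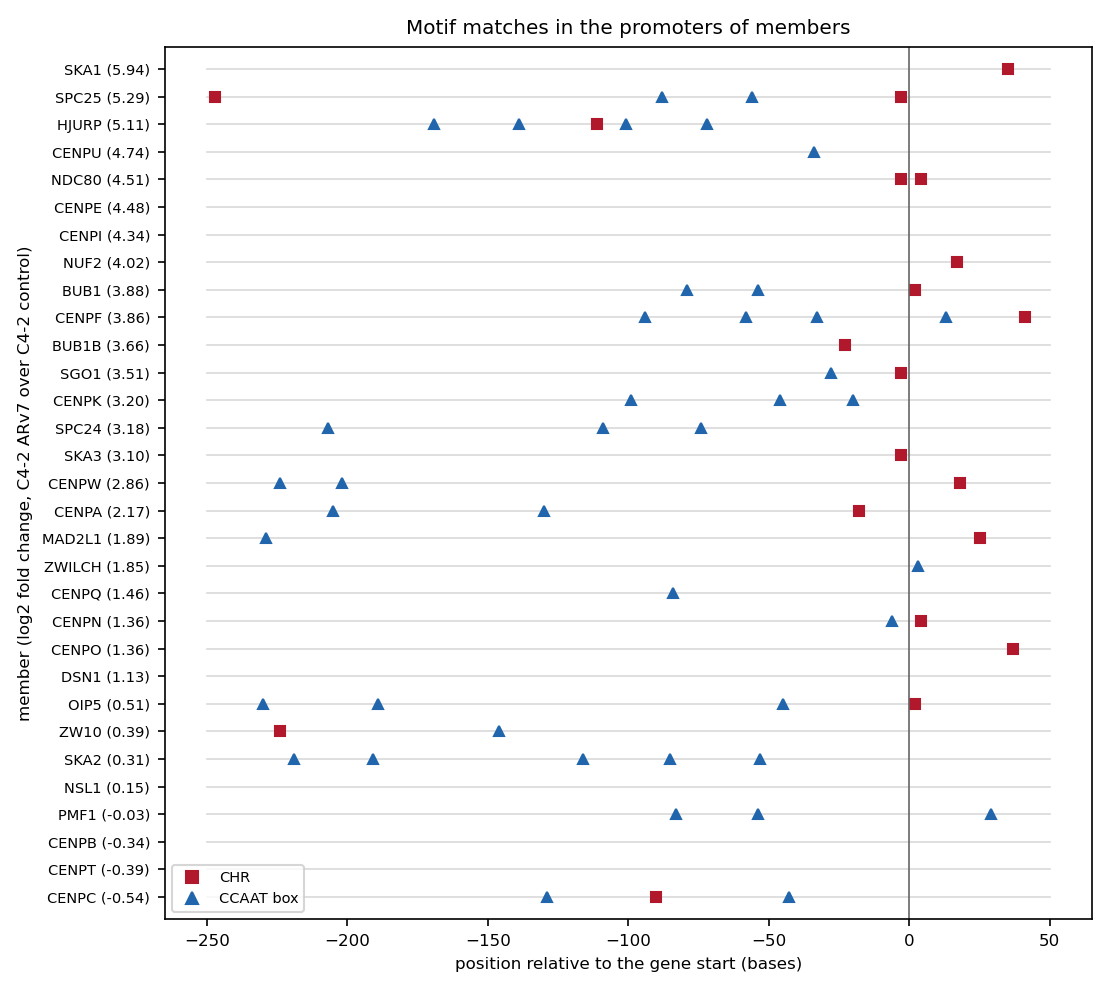
Position of CHR and CCAAT matches, in bases, relative to the gene start that each window was built on. They are from the promoters of 31 genes with 1 window each and a test in C4-2. Genes are ordered from the largest rise in C4-2 ARv7 at the top to the largest fall at the bottom. Squares are CHR matches and triangles CCAAT matches; most CHR squares lie near the start, and the windows of CENPE, CENPI, DSN1, NSL1, CENPB and CENPT are empty.

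Of the genes for CENP-A and its deposition, HJURP, MIS18A and CENPA rose in C4-2 ARv7, and OIP5 did not pass. HJURP, the chaperone that places CENP-A in chromatin, had 4.94, 6.403 and 6.097 FPKM in C4-2 ARv7, against 0.198, 0.143 and 0.109 FPKM in C4-2 control. The groups lay far apart, with 25 counts in all 3 control libraries together and 904 with ARv7, a ratio by total counts of 38.6 (exact 95% counting interval 26.0 to 60.0; log2 fold change 5.11, SE 0.222, edgeR adjusted p = 1.72e-13). In 22Rv-1 HJURP had 10.1, 8.83 and 9.22 FPKM in 22Rv-1 shARv7 and 10.5, 12.7 and 11.4 FPKM in 22Rv-1 shcontrol, lower after depletion with no overlap (log2 fold change -0.34, SE 0.0835, edgeR adjusted p = 0.000373). CENPA itself rose 4.51-fold in C4-2 ARv7 (log2 fold change 2.17, SE 0.246, edgeR adjusted p = 3.08e-07), and in 22Rv-1 its log2 fold change was -0.21 (edgeR adjusted p = 0.244).

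MIS18A, a subunit of the complex that primes centromeres for new CENP-A, had 14.1, 12.5 and 14.9 FPKM in C4-2 ARv7, against 6.12, 5.47 and 6.05 FPKM in C4-2 control. Its groups did not overlap in either line. In 22Rv-1 its fall was the largest of this role, with 18.6, 19.0 and 14.9 FPKM in 22Rv-1 shARv7 and 21.7, 24.04 and 23.7 FPKM in 22Rv-1 shcontrol (log2 fold change -0.45, SE 0.0895, edgeR adjusted p = 1.77e-05). OIP5, also called MIS18B, its partner, had 0.7397, 1.55 and 1.62 FPKM in C4-2 ARv7 and 0.971, 1.14 and 0.346 FPKM in C4-2 control, with counts of 6 to 26 per library and overlapping groups (log2 fold change 0.51, 95% interval -0.3802 to 1.402). The interval still allows a 2-fold rise. Of the OIP5 exons, 38.0% of bases overlap OIP5-AS1 on the opposite strand, and whether the counting used strand has no source here.

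CENPB, which binds a motif in centromeric alpha satellite DNA and is made throughout the cell cycle, was among the most abundant of the genes in every group. CENPB had 29.9, 28.4 and 29.4 FPKM in C4-2 ARv7, against 29.9, 33.6 and 36.5 FPKM in C4-2 control. Every control library lay above every library with ARv7, the nearest pair by a small margin, and CENPB fell (log2 fold change -0.34, SE 0.0783, edgeR adjusted p = 0.000948). In 22Rv-1 it had 36.4, 32.6 and 33.1 FPKM in 22Rv-1 shARv7 and 32.2, 36.2 and 31.8 FPKM in 22Rv-1 shcontrol, with overlapping groups and a log2 fold change of -0.02 (95% interval -0.142 to 0.104).

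The constitutive centromere network split in C4-2: 11 of its 13 genes rose and CENPC and CENPT fell. The largest rise was in CENPU, which links the CENP-O group to the kinase PLK1. CENPU had 8.93, 9.68 and 10.2 FPKM in C4-2 ARv7, against 0.197, 0.450 and 0.318 FPKM in C4-2 control. No library of one group came near the other (log2 fold change 4.74, SE 0.184, edgeR adjusted p = 3.11e-14). CENPI, CENPK, CENPW, CENPM and CENPH were also at least 4-fold higher, with log2 fold changes from 2.34 to 4.34, and CENPQ, CENPN, CENPO, CENPP and CENPL lay between 1.17 and 1.46. CENPP shares 42.7% of its exon bases with opposite-strand genes, among them IPPK and NOL8, CENPO 31.4% with ADCY3 and PTRHD1, and CENPU 11.7% with PRIMPOL, and the part of these genes in the counts was not tested.

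CENPC, which binds CENP-A nucleosomes directly and carries the MIS12 complex, ran the other way. CENPC had 1.83, 2.15 and 2.25 FPKM in C4-2 ARv7, against 2.98, 3.00 and 2.17 FPKM in C4-2 control. Control replicate 3 lay within the range with ARv7, so the groups overlapped, and the fall (log2 fold change -0.54, SE 0.124, edgeR adjusted p = 0.00101) had limma adjusted p = 0.053 on log2(FPKM + 0.1). CENPT, the histone-fold protein that recruits the NDC80 complex, had 5.61, 5.805 and 5.69 FPKM in C4-2 ARv7, against 6.897, 7.19 and 6.15 FPKM in C4-2 control. These groups did not overlap (log2 fold change -0.39, SE 0.0838, edgeR adjusted p = 0.000536). CENPT shares 19.6% of its exon bases with genes on the opposite strand, among them NUTF2 and THAP11, which also fell in C4-2 (log2 fold changes -0.29 and -0.79, edgeR adjusted p = 0.000618 and 2.18e-05), and their part in the CENPT counts was not tested. In every alternative setting run, the C4-2 log2 fold changes of CENPB, CENPC and CENPT were below 0. CENPT binds DNA together with CENPW, which rose: CENPW had 7.36, 6.47 and 6.37 FPKM in C4-2 ARv7, against 1.12, 0.958 and 0.405 FPKM in C4-2 control.

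In 22Rv-1, 10 of the 13 network genes fell, CENPC and CENPT did not pass, and CENPN rose. The largest fall of all 43 genes was that of CENPM, a subunit of the CENP-H, I, K and M group, with 13.6, 16.6 and 14.4 FPKM in 22Rv-1 shARv7 and 28.4, 25.4 and 23.6 FPKM in 22Rv-1 shcontrol (log2 fold change -0.84, SE 0.0890, edgeR adjusted p = 3.81e-13). CENPL fell as well, with 4.39, 4.94 and 4.49 FPKM in 22Rv-1 shARv7 and 7.74, 6.99 and 7.46 FPKM in 22Rv-1 shcontrol (log2 fold change -0.73, SE 0.0918, edgeR adjusted p = 1.96e-10). CENPC had a log2 fold change of 0.04 (95% interval -0.147 to 0.2295) and CENPT of -0.16 (-0.338 to 0.0151). The falls of CENPI and CENPP lost the call without 22Rv-1 shcontrol replicate 2 (edgeR adjusted p = 0.0507 and 0.0776), and that of CENPW without shcontrol replicate 1 or shARv7 replicate 2 (0.0672 and 0.101).

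CENPN (chromosome 16, 81006498 to 81033114 on GRCh38), which reads CENP-A nucleosomes together with CENPL, was the 1 gene that rose in both comparisons. CENPN had 34.5, 34.5 and 37.6 FPKM in C4-2 ARv7, against 12.4, 12.6 and 12.5 FPKM in C4-2 control. It rose 2.56-fold (log2 fold change 1.36, SE 0.0685, edgeR adjusted p = 1.59e-12). In 22Rv-1 it had 10.3, 11.02 and 11.1 FPKM in 22Rv-1 shARv7 and 6.52, 5.55 and 6.28 FPKM in 22Rv-1 shcontrol, 1.71-fold higher after depletion (log2 fold change 0.77, SE 0.0916, edgeR adjusted p = 2.9e-11). The groups did not overlap in either line, and no alternative setting ended either call. Among all genes tested in both lines, 6.99% were higher in both. Of its exon bases, 22.8% are shared with genes on the opposite strand, among them CMC2, a mitochondrial assembly factor. CMC2 counts had a log2 fold change of 0.73 in 22Rv-1 (edgeR adjusted p = 3.54e-08) and of 0.21 in C4-2 (edgeR adjusted p = 0.116), and their part in the CENPN counts was not tested. CENPN and its partner CENPL stood in different proportions in the lines: the mean level of CENPN was 10.8 times that of CENPL in C4-2 ARv7 and 9.50 times in C4-2 control, and 2.35 times in 22Rv-1 shARv7, while in 22Rv-1 shcontrol CENPL was 1.21 times as high as CENPN.

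**Figure D4:**
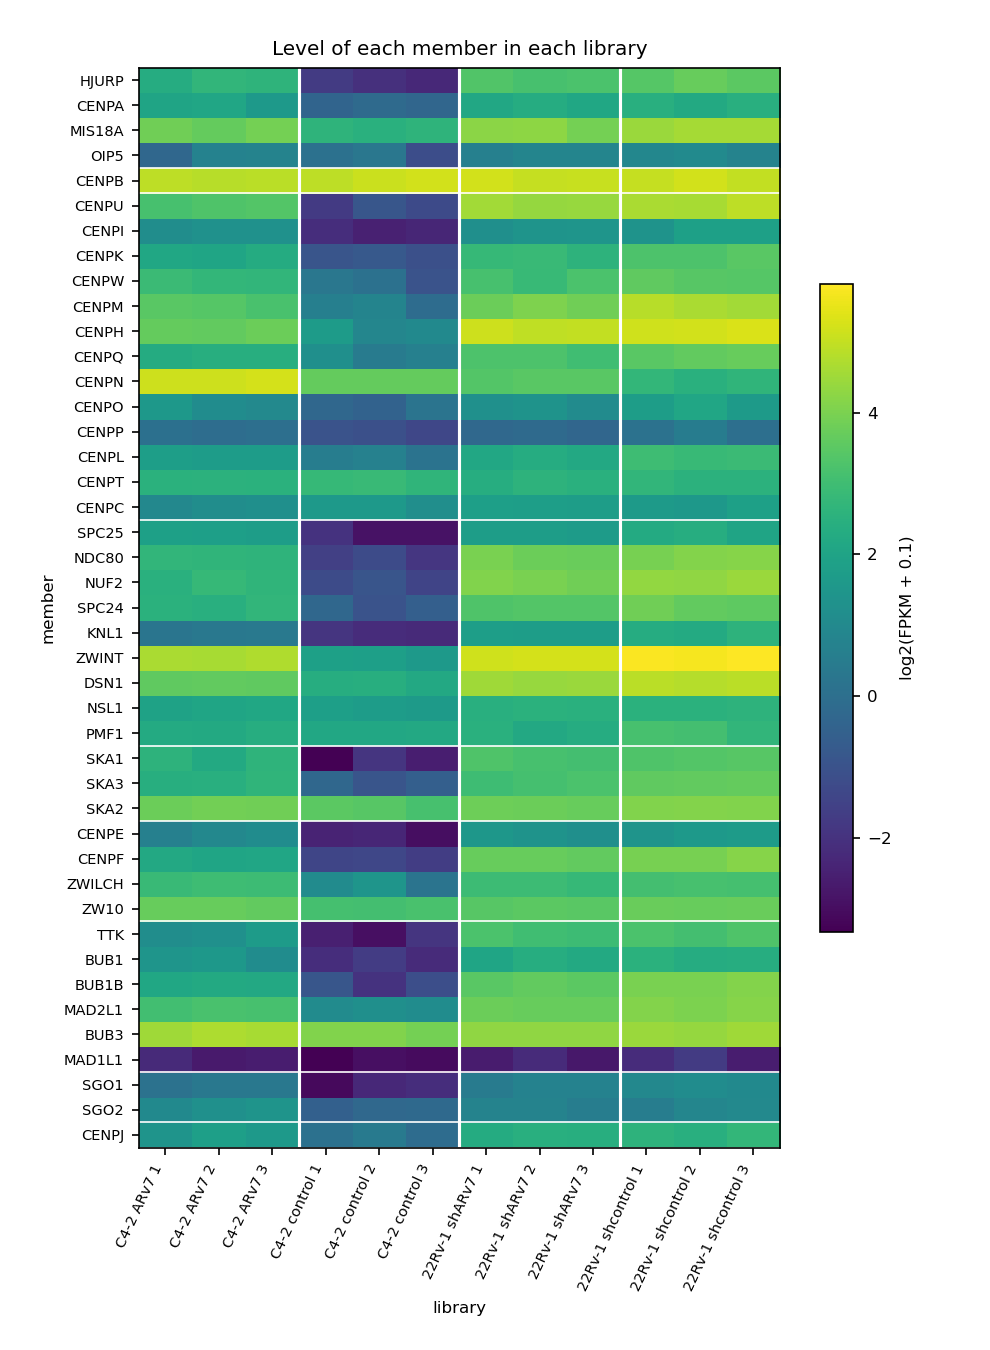
Level of each of the 43 genes in each of the 12 libraries as log2(FPKM + 0.1), by role and group. The 3 C4-2 control columns are the darkest for most rows, CENPN is brightest in the C4-2 ARv7 columns, and MAD1L1 is low in every column.

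Of the outer kinetochore genes, 7 of 9 rose in C4-2 ARv7 and 8 of 9 fell in 22Rv-1 shARv7. All 4 subunits of the NDC80 complex, which binds the microtubule, were among them, with log2 fold changes in C4-2 from 3.18 for SPC24 to 5.29 for SPC25. SPC25 had 3.55, 3.45 and 3.33 FPKM in C4-2 ARv7, against 0.150, 0.0373 and 0.0378 FPKM in C4-2 control. Control libraries held 4, 1 and 1 counts, and the ratio by total counts was 45.9 (exact 95% counting interval 20.8 to 126). In 22Rv-1 SPC25 had 3.29, 3.31 and 3.101 FPKM in 22Rv-1 shARv7 and 4.68, 5.04 and 3.96 FPKM in 22Rv-1 shcontrol (log2 fold change -0.54, SE 0.174, edgeR adjusted p = 0.00755). NDC80 had 6.31, 6.26 and 6.12 FPKM in C4-2 ARv7, against 0.232, 0.326 and 0.175 FPKM in C4-2 control. In 22Rv-1 NDC80 had 15.58, 13.61 and 13.05 FPKM in 22Rv-1 shARv7 and 15.31, 17.41 and 17.81 FPKM in 22Rv-1 shcontrol. Its groups there overlapped (log2 fold change -0.31, SE 0.0752, edgeR adjusted p = 0.000457). In C4-2 ARv7 the mean levels of the 4 subunits lay within 1.81 times of each other. In 22Rv-1 they lay further apart, with the mean of NUF2 at 4.47 times that of SPC25 in 22Rv-1 shcontrol and 4.82 times in 22Rv-1 shARv7. In the single C4-2 control libraries SPC24 stood at 4.83 to 15.5 times the level of SPC25, a range set by the few SPC25 counts.

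KNL1, the scaffold on which the checkpoint proteins gather, and ZWINT, its partner, rose 7.57-fold and 6.96-fold in C4-2 ARv7 and fell in 22Rv-1 shARv7 (log2 fold changes -0.68 and -0.60). The MIS12 complex, which bridges the inner and outer kinetochore, did not move as 1 unit. Its subunit gene DSN1 rose 2.19-fold in C4-2, and PMF1 had 4.69, 4.64 and 5.06 FPKM in C4-2 ARv7, against 4.36, 4.38 and 4.48 FPKM in C4-2 control (log2 fold change -0.03, 95% interval -0.296 to 0.244). Its FPKM was higher in every ARv7 library, but FPKM is scaled by total counts, and with TMM normalization the sign was the other way. In 22Rv-1 PMF1 had 5.48, 4.44 and 4.99 FPKM in 22Rv-1 shARv7 and 8.74, 8.49 and 6.43 FPKM in 22Rv-1 shcontrol, the largest fall of this role (log2 fold change -0.71, SE 0.122, edgeR adjusted p = 9.68e-07). Of its exon bases, 23.3% are shared with the read-through gene PMF1-BGLAP. NSL1 had a C4-2 log2 fold change of 0.15 (edgeR adjusted p = 0.0988), and it passed in 4 of 15 alternatives: total counts (log2 fold change 0.30, edgeR adjusted p = 0.00397), 1 fit of all 12 libraries (edgeR adjusted p = 0.0498) and limma on log2(FPKM + 1) and log2(FPKM + 0.1) (limma adjusted p = 0.0208 and 0.022). MIS12 itself, which is not among the 43, rose in C4-2 (log2 fold change 0.20, edgeR adjusted p = 0.0396) and had a log2 fold change of -0.01 in 22Rv-1 (edgeR adjusted p = 0.916).

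All 3 SKA complex genes, whose products follow shortening microtubule ends, rose in C4-2 and fell in 22Rv-1, but their sizes ran apart. SKA1 (chromosome 18, 50375040 to 50394168 on GRCh38) had 254, 184 and 218 counts in C4-2 ARv7 and 0, 7 and 3 counts in C4-2 control (log2 fold change 5.94, SE 0.342, edgeR adjusted p = 1.34e-11). Its ratio by total counts had an exact 95% counting interval of 37.9 to 147. Its fold change ranked above those of the other genes in this fit, but the rank rests on few control counts: without C4-2 control replicate 1 its log2 fold change was 5.35 and that of SPC25 6.19, and with limma on log2(FPKM + 1) it was 2.60 and that of CENPU 3.01. SKA3 rose 8.596-fold. SKA2 had 13.4, 14.6 and 14.3 FPKM in C4-2 ARv7, against 11.4, 10.7 and 8.799 FPKM in C4-2 control. Its groups did not overlap, but the rise was 1.24-fold (log2 fold change 0.31, SE 0.0893, edgeR adjusted p = 0.00621). In C4-2 ARv7 the mean levels were 5.55 FPKM for SKA1, 5.56 FPKM for SKA3 and 14.1 FPKM for SKA2, and in C4-2 control they were 0.0787 FPKM for SKA1, 0.581 FPKM for SKA3 and 10.3 FPKM for SKA2. In 22Rv-1 the largest of the 3 falls was that of SKA3, with 7.89, 8.71 and 9.34 FPKM in 22Rv-1 shARv7 and 11.97, 12.3 and 12.5 FPKM in 22Rv-1 shcontrol (log2 fold change -0.55, SE 0.0895, edgeR adjusted p = 2.52e-07). The fall of SKA1 there (log2 fold change -0.25, SE 0.0936, edgeR adjusted p = 0.0204) lost the call in 5 of 15 alternatives, among them total counts (edgeR adjusted p = 0.0623), and edgeR runs without shcontrol replicate 3 (0.0734), shARv7 replicate 2 (0.066) or shARv7 replicate 3 (0.109).

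**Figure D5:**
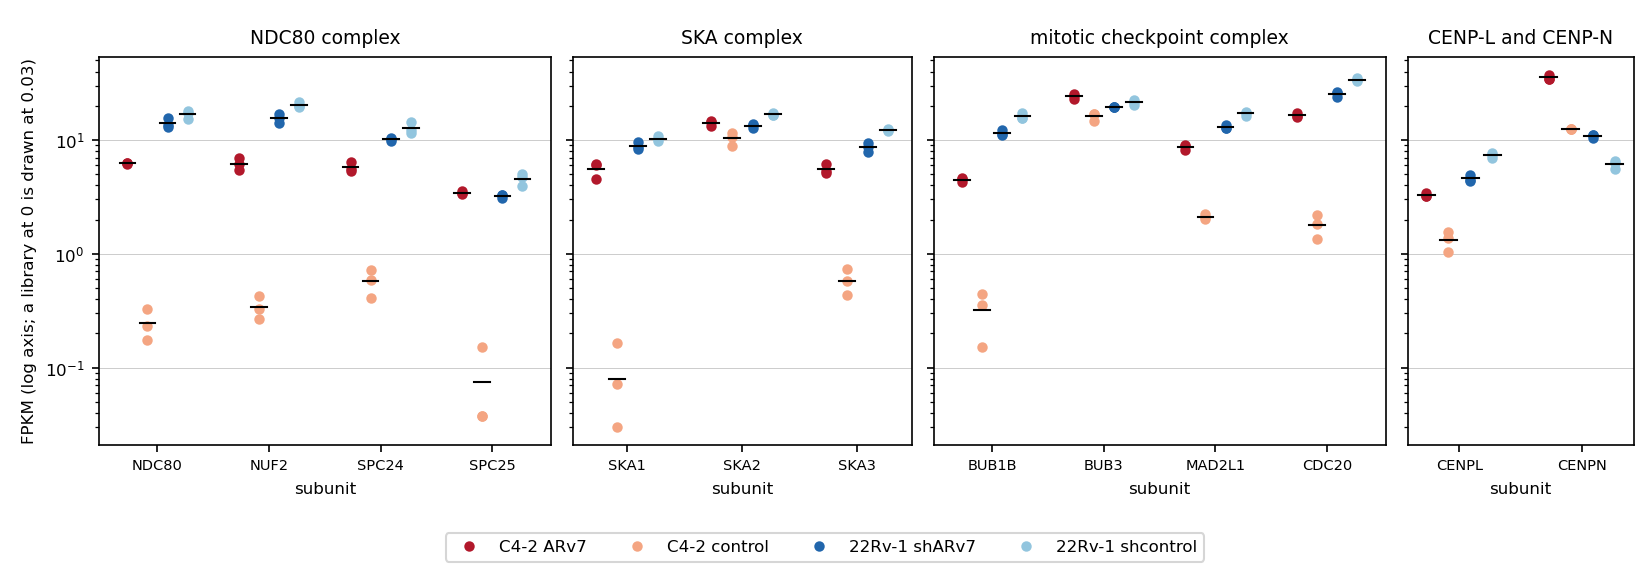
FPKM on a log axis of the subunits of the NDC80 complex, the SKA complex, the mitotic checkpoint complex and the CENPL and CENPN pair, 1 point per library, with a bar at the group mean and the library without SKA1 counts drawn at the foot of the axis. C4-2 control points lie far below the others for SKA1, the NDC80 complex and BUB1B, but not for SKA2, BUB3 or CENPN.

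All 4 genes of the fibrous corona and the RZZ complex rose in C4-2 and fell in 22Rv-1. CENPE, a kinesin that carries chromosomes to the plate, had 1.48, 1.81 and 2.07 FPKM in C4-2 ARv7, against 0.0898, 0.0961 and 0.0279 FPKM in C4-2 control. The groups did not overlap (log2 fold change 4.48, SE 0.255, edgeR adjusted p = 1.12e-11). In 22Rv-1 its groups overlapped, and the fall (log2 fold change -0.23, SE 0.0975, edgeR adjusted p = 0.0437) lost the call in 10 of 15 alternatives, among them DESeq2 (adjusted p = 0.0921) and edgeR without shcontrol replicate 2 (0.0834), shcontrol replicate 3 (0.202), shARv7 replicate 2 (0.0873) or shARv7 replicate 3 (0.242). CENPF, a large coiled-coil protein of the corona, had 4.43, 4.06 and 4.12 FPKM in C4-2 ARv7, against 0.276, 0.286 and 0.219 FPKM in C4-2 control (log2 fold change 3.86, SE 0.124, edgeR adjusted p = 1.57e-15), and the largest 22Rv-1 fall of this role, with 12.7, 12.8 and 12.3 FPKM in 22Rv-1 shARv7 and 15.3, 15.5 and 17.6 FPKM in 22Rv-1 shcontrol (log2 fold change -0.40, SE 0.0540, edgeR adjusted p = 1.73e-09). ZW10, an RZZ subunit that also works in membrane traffic, had 12.8, 12.9 and 12.1 FPKM in C4-2 ARv7, against 8.52, 8.48 and 9.04 FPKM in C4-2 control. Its rise was 1.31-fold (log2 fold change 0.39, SE 0.0886, edgeR adjusted p = 0.000804). ZWILCH, another RZZ subunit, rose 3.61-fold. It shares 10.9% of its exon bases with genes on the opposite strand, among them RPL4, which fell in C4-2 and rose in 22Rv-1 (log2 fold changes -0.32 and 0.24, edgeR adjusted p = 0.000391 and 1.22e-08), and their part in the ZWILCH counts was not tested.

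Of the spindle checkpoint genes, all 5 tested in C4-2 rose: TTK, the MPS1 kinase that starts the signal, BUB1 and BUB1B, which bind to KNL1, MAD2L1, which forms the inhibitor of the anaphase-promoting complex, and BUB3. TTK had 2.13, 2.33 and 3.16 FPKM in C4-2 ARv7, against 0.0749, 0.0298 and 0.166 FPKM in C4-2 control. The ratio by total counts was 27.9 (exact 95% counting interval 17.5 to 47.5; log2 fold change 4.64, SE 0.329, edgeR adjusted p = 3.5e-10). In 22Rv-1 TTK had 9.23, 8.06 and 7.57 FPKM in 22Rv-1 shARv7 and 9.19, 8.33 and 9.79 FPKM in 22Rv-1 shcontrol, with a log2 fold change of -0.18 that did not pass (edgeR adjusted p = 0.0634) but did without shcontrol replicate 2 or shARv7 replicate 1 (0.0228 and 0.0126). BUB1 and BUB1B rose 14.7-fold and 12.6-fold in C4-2, MAD2L1 3.704-fold and BUB3, the WD40 adaptor of both BUB kinases, 1.36-fold. BUB3 had 22.9, 25.6 and 24.6 FPKM in C4-2 ARv7, against 16.98, 16.9 and 14.8 FPKM in C4-2 control. The mean level of BUB3 was 5.45 times that of BUB1B in C4-2 ARv7 and 50.9 times in C4-2 control, where it was 38.1 to 110.0 times in single libraries.

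In 22Rv-1, BUB1B, MAD2L1, BUB1 and BUB3 fell, with log2 fold changes of -0.54, -0.44, -0.24 and -0.19, and BUB1, whose groups overlapped, lost the call in 8 of 15 alternatives, among them edgeR without shcontrol replicate 1 (0.133), shARv7 replicate 1 (0.188) or shARv7 replicate 3 (0.0545). MAD1L1, the kinetochore receptor of MAD2L1, is usually well expressed in dividing cells, so its few counts in the deposited table may be incomplete and its values are uncertain. It had 12, 6 and 6 counts in C4-2 ARv7, 0, 3 and 2 counts in C4-2 control, 6, 11 and 5 counts in 22Rv-1 shARv7 and 13, 19 and 7 counts in 22Rv-1 shcontrol. At this depth its 22Rv-1 log2 fold change was -0.79 (95% interval -1.82 to 0.238), and in C4-2 it fell under the filter on low counts, with a ratio by total counts of 5.13 (exact 95% counting interval 1.92 to 17.2).

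The shugoshins protect cohesion between sister centromeres. SGO1 shares 17.7% of its exon bases with SGO1-AS1 on the opposite strand, whose part in its counts was not tested. SGO1 had 0.986, 1.17 and 1.17 FPKM in C4-2 ARv7, against 0.0183, 0.109 and 0.1295 FPKM in C4-2 control. The control libraries held 1, 6 and 7 counts, and the ratio by total counts was 12.9 (exact 95% counting interval 7.48 to 24.1; log2 fold change 3.51, SE 0.407, edgeR adjusted p = 4.29e-07). In 22Rv-1 SGO1 had 1.305, 1.58 and 1.57 FPKM in 22Rv-1 shARv7 and 1.82, 2.06 and 1.899 FPKM in 22Rv-1 shcontrol, all lower after depletion, with edgeR adjusted p = 0.0498, a call lost in 11 of 15 alternatives, among them edgeR without any 1 of the 6 libraries of the line (adjusted p from 0.0595 to 0.175). SGO2 rose 2.87-fold in C4-2, with 1.94, 2.299 and 2.54 FPKM with ARv7 against 0.606, 0.753 and 0.765 FPKM in control, and had overlapping groups in 22Rv-1 (log2 fold change -0.16, edgeR adjusted p = 0.389). CENPJ, which despite its name builds centrioles, rose 2.61-fold in C4-2, with 2.55, 3.44 and 2.89 FPKM with ARv7 against 0.955, 1.28 and 0.833 FPKM in control. In 22Rv-1 it fell, with 4.84, 5.35 and 5.25 FPKM in 22Rv-1 shARv7 and 5.89, 5.38 and 6.54 FPKM in 22Rv-1 shcontrol (log2 fold change -0.26, SE 0.0894, edgeR adjusted p = 0.0138), and lost the call in 5 of 15 alternatives, among them edgeR without shcontrol replicate 3 (0.0945) or shARv7 replicate 1 (0.0679).

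Of 26 partner genes that act at the kinetochore but are not among the 43, 25 were tested in each line. In C4-2 ARv7, where 29.6% of all genes tested rose and 29.5% fell, 19 partners rose, 2 fell and 4 did not pass. The largest rises were those of AURKB, the kinase that corrects wrong attachments, BIRC5, which encodes survivin of the same passenger complex, and KIF2C, a microtubule depolymerase, with log2 fold changes of 4.78, 4.27 and 4.05. AURKB had 4.94, 4.51 and 4.82 FPKM in C4-2 ARv7, against 0.122, 0.274 and 0.0618 FPKM in C4-2 control. CENPX, a histone-fold protein, and NDEL1, a dynein regulator, fell (log2 fold changes -0.30 and -0.23, edgeR adjusted p = 0.00788 and 0.0145), but neither passed with total counts (edgeR adjusted p = 0.147 and 0.381) or without C4-2 ARv7 replicate 1 (0.0621 and 0.104). In 22Rv-1 shARv7, where 24.1% of all genes tested fell and 23.9% rose, 19 partners fell, none rose and 6 did not pass. CDCA8, the borealin subunit, CENPV and SPDL1, which brings dynein to kinetochores, fell most (log2 fold changes -0.58, -0.56 and -0.54).

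The lines also started from different levels. In 22Rv-1 shcontrol 39 of the 43 genes were higher than in C4-2 control, where 42.5% of 14235 genes tested were, and CENPN and CENPT were lower, where 40.9% were. In C4-2 ARv7 33 genes were lower than in 22Rv-1 shcontrol, where 40.6% of all genes were, and CENPN, BUB3 and SGO2 were higher, where 40.3% were. Line and vector differ together in these comparisons. To ask whether gain and loss of ARv7 moved a gene by equal and opposite amounts, the log2 fold changes of the 2 lines were added in 1 fit of all 12 libraries. The sum is 0 where they are equal and opposite. Line and vector differ together in this sum as well. For a gene that moved the same way in both lines, such as CENPN, the sum adds the changes and does not compare their sizes. It was above 0 for 34 of the 43 genes, below 0 for CENPB, CENPC, CENPT and PMF1 and did not pass for 5, where 27.4% of all 14235 genes tested were above and 23.3% below. With total counts, all genes split into 5316 above and 2069 below, against 3897 and 3314 with TMM, and of the 4 negative sums CENPT and PMF1 kept their call. SKA2 and ZW10 had sums of -0.07 (95% interval -0.304 to 0.161) and 0.12 (-0.127 to 0.3598), intervals that hold 0 and bound how far their gain and loss could differ.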

How the data were processed

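Total RNA of the cultured cells was read on the Illumina NovaSeq platform, per the labels' protocols, which name Cutadapt 2.7 for trimming. The authors deposited counts of reads for each gene, as whole numbers without normalization. They also deposited FPKM. FPKM equalled count over gene length and library total within a relative difference of 1.8e-07. Aligner, counter and strand setting: not given in the sources used here. Of 19974 lines, 1 lacked a gene identifier and was left out. The submitters' processing notes name hg18, but all 43 genes lay on the same chromosome and within 10000 bp of GENCODE release 29, so coordinates are GRCh38.

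Each line was fitted with edgeR 4.0.16 on the deposited counts (filterByExpr, TMM, quasi-likelihood F-test, Benjamini-Hochberg over all genes tested, threshold 0.05), and all 12 libraries were fitted together for differences between lines. Standard errors are the log2 fold change over the square root of F. Levels are FPKM of replicates 1, 2 and 3 in that order. For genes with few counts, ratios of counts over library totals have exact 95% counting intervals, which cover counting error only, since PCR copies were not told apart. The pipeline was tested on simulated data.

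The members, the partner list, the roles and the motifs were chosen with earlier results of these data known. Within a role, the text gives library values for the genes with the largest and the smallest change in C4-2 and the largest in 22Rv-1, for genes that moved against the rest and for those that rose in both lines. Other genes are examples by role. The level of the targeted gene is not reported here. The largest rises and falls of the partners, at most 3 each per line, are named. The other settings tried were the DESeq2 1.42.0 test, edgeR with DESeq2 size factors or with total counts, no filter, a mean of at least 5 CPM, limma 3.58.1 on log2(FPKM + 1) and log2(FPKM + 0.1) for genes with a mean FPKM of at least 1, the replicate number as a block, all libraries in 1 fit, and each library left out in turn.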

Additional observations from a re-analysis of the deposited data

Results flagged for a closer look

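For most of the genes the responses of the lines were not equal and opposite, by a test of their sum, which for genes that moved the same way in both lines adds the changes and does not compare their sizes. The sum of the log2 fold changes, C4-2 ARv7 over C4-2 control plus 22Rv-1 shARv7 over 22Rv-1 shcontrol, passed the threshold for 34 genes with a positive sum and for 4 genes with a negative one. Of all 14235 genes tested, 27.4% had a positive sum and 23.3% a negative one by the same rule. Line, kind of vector and starting level differ together here, and the level of the targeted gene is not reported, so their parts cannot be told apart. The largest sums were 5.69 for SKA1, 4.77 for HJURP, 4.76 for SPC25, 4.46 for TTK and 4.41 for CENPU, all genes with few counts in C4-2 control. CENPN, with a sum of 2.14, was flagged because its level was higher in C4-2 ARv7 than in C4-2 control and also higher in 22Rv-1 shARv7 than in 22Rv-1 shcontrol.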

How the results depend on the processing

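Calls in C4-2 varied in number with the settings: 32 to 38 of the genes rose and 2 to 3 fell under every alternative run, with fewer genes tested under stricter filters. With limma on log2(FPKM + 1) and log2(FPKM + 0.1), 2237 and 2220 of all genes were lower, against 3776 with edgeR and TMM. FPKM is scaled by total counts, and edgeR with total counts gave 2523 lower. The limma runs also differed in test and filter, and the cause was not tested. With total counts the members' median was 2.40. The sum of both responses was then negative for 2 members and 2069 of all genes, and with limma for 2 members and 2097 genes. In 22Rv-1 shcontrol over C4-2 control, 1 member was lower with total counts and with limma. In 22Rv-1, 27 to 33 members fell over the alternatives, 27 in 1 fit of all 12 libraries and 29 with total counts. Leaving out 1 library gave 36 higher and 3 lower in C4-2, 29 to 31 lower and 1 higher in 22Rv-1, 31 to 34 positive and 4 negative sums, 2 to 3 members lower in 22Rv-1 shcontrol than in C4-2 control, and 2 to 3 members higher in C4-2 ARv7 than in 22Rv-1 shcontrol. Values near 0 that passed nowhere changed sign: PMF1 in C4-2 was 0.12 with total counts, 0.10 and 0.12 with limma and 0.0034 without C4-2 control replicate 3, and ranged from -0.0627 to 0.0034 with 1 library left out. CENPB in 22Rv-1 was 0.028 with total counts, 0.0008 among genes of at least 5 CPM, 0.026 and 0.027 with limma, and 0.038 and 0.011 without shcontrol replicate 2 and shARv7 replicate 2, within a range from -0.0738 to 0.0384 with 1 library left out. CENPC in 22Rv-1 was -0.027 without shcontrol replicate 2, and ranged up to 0.1296 with 1 library left out.

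Same-numbered replicates did not deviate together (correlations from -0.057 to 0.015, against -0.045 to 0.089 for libraries with different numbers). With 3 libraries per group, this cannot tell whether same-numbered libraries were handled together. With a replicate block, 36 members rose and 3 fell in C4-2, and 32 fell in 22Rv-1, where SGO1 lost its call (edgeR adjusted p = 0.0549). In C4-2 control, 6 to 10 members had under 10 counts, which limits the precision of their fold changes. In the last 150 bases of the promoter windows, CHR matches were in 46.2% of the members' windows and 7.37% of all windows.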

Other observations

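The order of the levels by FPKM differed between the lines. CENPN ranked 1 of the 43 genes in C4-2 ARv7, at a mean of 35.5 FPKM, and 3 in C4-2 control, at 12.5 FPKM. In 22Rv-1 it ranked 16 with ARv7 depleted, at 10.8 FPKM, and 27 in control cells, at 6.12 FPKM. ZWINT ranked 1 in both 22Rv-1 groups, at 36.9 FPKM in 22Rv-1 shARv7 and 54.1 FPKM in 22Rv-1 shcontrol. CENPB led in C4-2 control at 33.3 FPKM. MAD1L1 ranked last in every group, but its counting in the deposited table may be incomplete. The length behind the FPKM of NSL1 in the deposited table, 13867 bases, is well above its exon length in GENCODE release 29, 4091 bases, so its FPKM may be understated.

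Within the RZZ complex, KNTC1, the subunit that is not among the 43, had mean levels of 4.24 FPKM in C4-2 ARv7 and 0.792 FPKM in C4-2 control, and 21.5 FPKM in 22Rv-1 shARv7 and 30.1 FPKM in 22Rv-1 shcontrol. It was the lowest RZZ subunit in both C4-2 groups and the highest in both 22Rv-1 groups.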
